A study of Mus musculus with 12 samples.

Results

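Knockout embryonic stem cells that had received tamoxifen for 6 days were compared with the same kind of cells at day 3. The members are the 4 arrays titled as knockout on these days, 2 per day, out of 12 in the study. The 4 control arrays of days 3 and 6 and the 2 knockout arrays of day 1.5 served as references. All cells were mouse embryonic stem cells with both alleles of Thap11, the gene for the protein Ronin, flanked by loxP sites (Ronin flox/flox). The knockout line had CreERT2 as well, a recombinase that is switched on by tamoxifen and then removes the flanked sequence. The control line had no CreERT2, and tamoxifen at 0.25 uM was given to both. Cells went in at 100000 per 10 cm2, and all cultures were split on day 4 and plated again at that density, so that day 6 came 2 days after a split and day 3 before it. The day and the split cannot be told apart within a line. CreERT2 was in the knockout line alone, so its own effect and any other difference between the lines cannot be told apart from the loss of Thap11. The labels name no clone, and nothing in them says that a group's 2 arrays are of different cultures, so a p-value here speaks only of the spread between arrays, which may be technical.

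Ronin is a zinc finger protein of the THAP family. It binds DNA next to gene starts and works with the cofactor HCF-1, encoded by Hcfc1. Its known targets include genes for mitochondrial proteins, for protein synthesis and for the handling of vitamin B12, and embryonic stem cells without it stop growing.

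The values were Affymetrix probe set intensities, tested as log2 for 18194 genes with 1 probe set per gene. Arrays of a group correlated with r of 0.9982 to 0.9986. The median intensity over all probe sets was 44.36 to 44.72 on the 4 arrays of day 3 and 42.37 to 43.04 on the other 8, so the day 3 arrays of both lines stood apart. Over the genes tested the order was the opposite, with medians of 106.51 to 108.40 on day 3 and 109.49 to 115.25 on the other 8. Along the first principal component, with 45.2% of the variance, the knockout arrays lay at 2.1 and 2.2 on day 3 and at 37.8 and 38.2 on day 6. The control arrays moved the same way, from -25.0 and -25.2 on day 3 to -6.6 and -6.5 on day 6. Control day 6 was thus near control day 1.5, at -7.4 and -8.2. On the second component control day 1.5 lay at 13.8 and 11.6, day 3 at -12.4 and -15.2 and day 6 at 15.5 and 15.2. All 7 stem cell markers checked were bright on every array, and their summed intensity was 68796 to 69800 in knockout cells on day 3 and 69452 to 69863 on day 6. The summed intensity of 9 fibroblast markers was 334.9 to 363.5 on day 3 and 302.7 to 303.5 on day 6, with none higher and 1 lower.

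Thap11 itself was still falling between the days. Its intensity in knockout cells was 110.2 and 92.7 on day 3 and 50.6 and 51.5 on day 6, against 1278.6 to 1381.8 on the 4 control arrays of these days. Both day 6 arrays lay below both of day 3. The log2 change was -0.98 ± 0.083 (SE), with an adjusted p of 4.3e-05 in limma, and it differed from the control change by -1.05 ± 0.12 (adjusted p = 0.0008). The files do not say whether this probe set reads the deleted part. Hcfc1, the gene of the cofactor, read 2273 and 2588 on day 3 and 2402 and 2193 on day 6, values that overlap, and its log2 change was -0.08 ± 0.074 (adjusted p = 0.44).

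Between day 3 and day 6 the knockout cells changed at 6092 of 18194 genes (33.5%) at an adjusted p below 0.05. Of these, 3733 rose (20.5% of genes tested) and 2359 fell (13.0%). Most changes were small (median 0.37 in log2 among those genes), and rises of 2-fold or more were seen at 256 genes and such falls at 43. The control cells also changed over these days, at 5000 genes (27.5%), of which 3543 rose (19.5%) and 1457 fell (8.01%). In controls 124 rises and 17 falls reached 2-fold. These counts depended on the values used: with the mean of a gene's probe sets they were 148 and 27 in knockout cells and 80 and 13 in controls, and with an offset of 32 added before log2 they were 134 and 16, and 67 and 7. Without replicate 1 or replicate 2 of control day 6, the control count was 3072 or 3315. The change differed between the lines at 2991 genes (16.4%), more positive in knockout cells at 1399 (7.69%) and more negative at 1592 (8.75%). That count was 1902 and 1983 without replicate 1 and replicate 2 of control day 6, and 1905 and 1883 without those of knockout day 6.

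The split between rises and falls depended on the scaling. Rises made up 61.3% of the knockout calls on the deposited scale. With each array centred on its median they made up 35.3% (2608 higher and 4779 lower), and after quantile normalization 48.2% (2841 and 3051). The median change over all genes was -0.010 on the deposited scale and -0.111 after median centring, a shift of -0.10, so small changes are to be read against it. In controls the share of rises went from 70.9% to 44.4% with centring and to 51.3% with quantile normalization.

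Knockout and control changes share no arrays, and across genes they correlated with r of 0.51 and Spearman's rho of 0.45, over 18194 genes that are not independent. The genes that rose in both lines numbered 1782, or 47.7% of the rises in knockout cells and 50.3% of those in controls. The genes that fell in both numbered 525, or 22.3% and 36.0%. Among the 256 genes that rose at least 2-fold in knockout cells, 182 (71.1%) also rose in controls. Among the 43 that fell at least 2-fold, 16 (37.2%) also fell in controls. With the mean of a gene's probe sets these shares were 68.9% and 37.0%, and with the offset of 32 they were 79.9% and 37.5%.

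**Figure D1:**
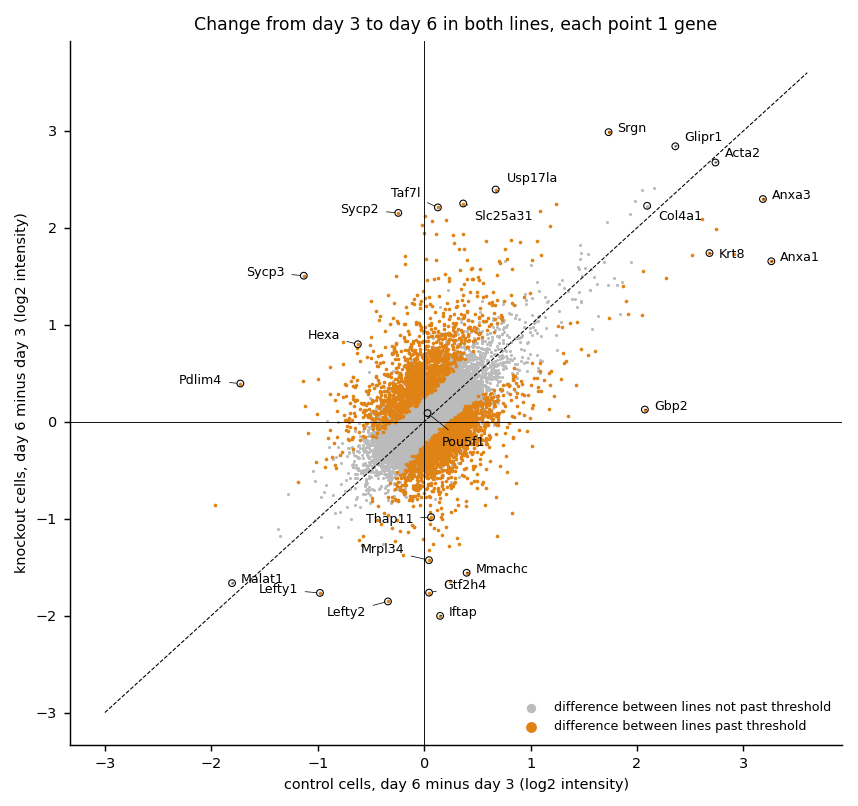
Change in log2 intensity from day 3 to day 6 in control cells (horizontal axis) and knockout cells (vertical axis), with 1 point for each of 18194 genes and a dashed line of equal change. Acta2, Col4a1 and Glipr1 lie near the line at the upper right, Iftap, Gtf2h4 and Mrpl34 fell in knockout cells and lie near 0 for controls, and Sycp3 rose in knockout cells and fell in controls. Orange marks the 2991 genes whose change differed between the lines.

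Symbols that are only clone numbers aside, the steepest fall was that of Iftap, which encodes a protein tied to intraflagellar transport. It read 172.9 and 181.0 in knockout cells on day 3 and 46.4 and 42.0 on day 6, while the 4 control arrays lay between 459.6 and 562.4. Day 6 was 24.9% of day 3, a log2 change of -2.00 ± 0.076 (adjusted p = 9.8e-07), and no array of one day overlapped the other. Its 3 other probe sets moved by -0.36 to -0.21 and did not pass the threshold, so the fall rests on 1 probe set.

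Gtf2h4 encodes a subunit of the transcription and DNA repair factor TFIIH. Its intensity was 756.3 and 785.5 on day 3 and 215.5 and 239.3 on day 6, with controls at 1396.8 to 1575.4. The log2 change was -1.76 ± 0.074 (adjusted p = 1.4e-06), and the probe set shares probes with other transcripts. Of its 3 other probe sets, 2 fell as well.

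Mmachc, which processes vitamin B12 inside cells, read 133.2 and 146.8 on day 3 and 51.1 and 44.1 on day 6. It fell by 1.56 ± 0.079 on the log2 scale (adjusted p = 3.3e-06) while it rose by 0.40 in controls, from 454.8 and 457.9 to 605.3 and 598.4. Clone symbols aside, this gave the second most negative difference between the lines, -1.96 ± 0.11 (adjusted p = 4.5e-05).

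A group of mitochondrial genes fell alongside. Mrpl34, a protein of the large subunit of the mitochondrial ribosome, went from 1360.2 and 1452 to 525.2 and 519.6. Uqcr10, a subunit of respiratory complex III, went from 2121 and 2233 to 910.7 and 832.3. Acad8, an enzyme of valine breakdown in mitochondria, went from 105.5 and 115.6 to 40.6 and 51.1. In each the 2 days did not overlap, and the log2 changes were -1.43, -1.32 and -1.28 (adjusted p = 1.4e-06, 3.3e-06 and 2.4e-05). The controls changed by 0.04, 0.04 and 0.24, none past the threshold. The other probe sets of Uqcr10 and Acad8 fell too, whereas the other one of Mrpl34 moved by -0.24 and did not pass. Ctu1, which places sulfur on the wobble base of some tRNAs, fell by 1.26 from 97.4 and 94.5 to 39.1 and 40.8.

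**Figure D2:**
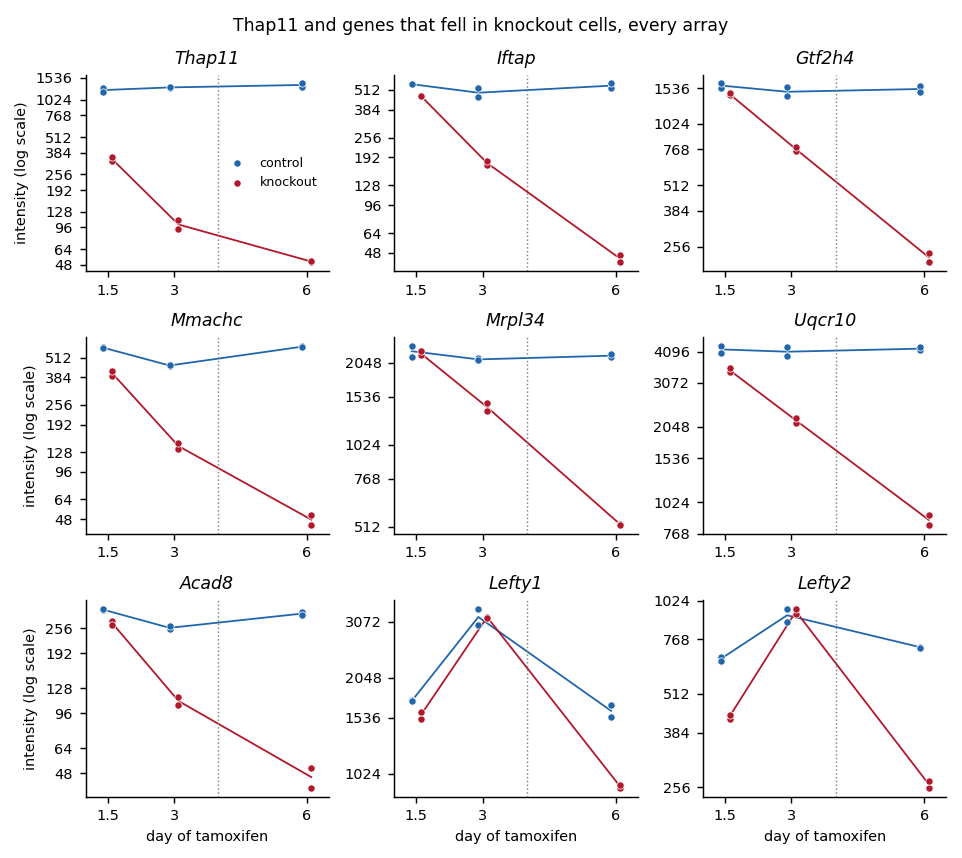
Intensity on a log axis against the day of tamoxifen for Thap11 and 8 genes that fell, with every array as a point, lines through the group means and a dotted line at the split on day 4. In knockout cells Iftap, Gtf2h4, Mmachc, Mrpl34, Uqcr10 and Acad8 went down over all days and controls stayed high, whereas Lefty1 and Lefty2 peaked on day 3 in both lines.

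The starts of these genes were searched for the letters CTACAANTC, where N is any base, a run of 9 letters that lies within the motif known for Ronin and HCF-1. The window was 250 bases before to 50 after each RefSeq start on GRCm38.p6, both strands were read, and no other motif was searched. Of 14369 tested genes with a sequence, 358 (2.49%) held a match. Among genes that fell in knockout cells 82 of 1869 did (4.39%), and among those that fell at least 2-fold 12 of 37 did (32.4%). That last share was 8 of 24 with the mean of a gene's probe sets and 7 of 13 with the offset of 32. Among the genes that rose, 65 of 3002 held one (2.17%), and of those that rose at least 2-fold, 2 of 198 (1.01%), or 1 of 117 and 0 of 106 with those settings. In controls the shares were 1.66% of the genes that fell and 3.12% of those that rose. Of the 12 largest falls 10 had a sequence, and 6 held a match, namely Iftap, Gtf2h4, Mrpl34, Uqcr10, Acad8 and Ctu1. Mmachc, Malat1, Ifi35 and Defb42 had a sequence without a match, and Lefty1 and Lefty2 had no sequence. Of the 12 largest rises 8 had a sequence, and none held a match. A match says only that these letters are in the window.

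Below are the starts of 4 of these genes, with matches in capitals and the strand of the gene. They were chosen for holding a match, as the steepest falls among the 6 genes that do. They lie at chr2:101628982-101629281 (minus strand, 1 of 2 starts listed for Iftap), chr17:35673694-35673993 (minus), chr8:71464676-71464975 (plus) and chr11:4704295-4704594 (minus). Matches lie 62 bases before the start in Iftap, 36 and 87 in Gtf2h4, 202 in Mrpl34 and 57 and 229 in Uqcr10.
Iftap: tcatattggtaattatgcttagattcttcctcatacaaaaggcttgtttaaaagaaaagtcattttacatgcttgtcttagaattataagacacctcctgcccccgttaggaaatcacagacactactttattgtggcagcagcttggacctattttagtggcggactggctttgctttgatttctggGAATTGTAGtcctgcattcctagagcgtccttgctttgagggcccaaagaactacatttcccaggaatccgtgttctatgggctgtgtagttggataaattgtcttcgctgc
Gtf2h4: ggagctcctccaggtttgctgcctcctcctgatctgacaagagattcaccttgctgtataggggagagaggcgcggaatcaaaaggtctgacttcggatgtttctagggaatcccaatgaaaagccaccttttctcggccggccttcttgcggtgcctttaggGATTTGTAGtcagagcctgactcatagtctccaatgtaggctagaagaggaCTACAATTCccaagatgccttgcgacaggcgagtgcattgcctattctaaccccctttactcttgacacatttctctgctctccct
Mrpl34: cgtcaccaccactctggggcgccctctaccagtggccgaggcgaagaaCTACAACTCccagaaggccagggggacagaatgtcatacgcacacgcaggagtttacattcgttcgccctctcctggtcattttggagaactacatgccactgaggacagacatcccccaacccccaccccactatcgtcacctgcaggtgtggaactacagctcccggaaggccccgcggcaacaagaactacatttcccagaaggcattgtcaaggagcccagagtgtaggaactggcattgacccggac
Uqcr10: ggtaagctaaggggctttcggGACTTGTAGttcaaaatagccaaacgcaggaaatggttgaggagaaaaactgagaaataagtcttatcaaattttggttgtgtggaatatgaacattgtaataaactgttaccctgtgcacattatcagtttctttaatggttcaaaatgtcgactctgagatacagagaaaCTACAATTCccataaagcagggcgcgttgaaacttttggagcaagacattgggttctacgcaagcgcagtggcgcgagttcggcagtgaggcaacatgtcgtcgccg

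Lefty1 and Lefty2 encode secreted inhibitors of Nodal, a growth factor that embryonic stem cells make. Lefty1 read 3189 and 3169 in knockout cells on day 3 and 925.6 and 943.2 on day 6, and in controls 2994 and 3370.4 and then 1543 and 1683. It fell in both lines, by 1.77 in knockout cells and by 0.98 in controls, with a difference of -0.79 ± 0.097 (adjusted p = 0.0012). Lefty2 fell by 1.85 in knockout cells and by 0.34 in controls, a difference of -1.51 (adjusted p = 4.5e-05). Against knockout day 1.5 the day 6 levels were lower by less, at -0.74 for Lefty1 and -0.73 for Lefty2.

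Malat1, a nuclear long noncoding RNA, fell by 1.67 ± 0.29 in knockout cells and changed by -1.81 in controls. Its day 3 controls were far apart at 12856 and 7165, and its probe sets disagreed, with 4 of 6 others lower past the threshold and 1 higher. Ifi35, an interferon-induced gene, went from 414.1 and 405.4 to 151.3 and 164.4 in knockout cells (log2 change -1.38, adjusted p = 3.7e-06). Its control change of -0.19 did not pass, and the probe set shares probes. Defb42, a defensin gene, fell by 1.28 in knockout cells and by 0.58 in controls.

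Counts in this and the other gene lists are to be set beside the shares over all genes. These were 20.5% higher and 13.0% lower in knockout cells, and 19.5% and 8.01% in controls. For the difference between the lines they were 7.69% positive and 8.75% negative. Of 76 mitochondrial ribosomal proteins, 25 fell and 2 rose in knockout cells, with a median log2 change of -0.12 beside -0.010 for all genes. In controls 27 rose and none fell (1 at an unadjusted limma p below 0.05), with a median of 0.13. The difference between the lines passed at 34 of them, all negative (1 was positive at an unadjusted p below 0.05). With 1 array left out, the falls in knockout cells numbered 11 to 16, the rises in controls 16 to 29 and the negative differences 14 to 36. The list's median log2 intensity on days 1.5, 3 and 6 was 10.70, 10.58 and 10.42 in knockout cells. In controls it was 10.69, 10.56 and 10.67, so that day 6 was back near day 1.5. Mrpl24, another protein of the large mitochondrial subunit, went from 2080 and 2231 to 1099.5 and 1054 in knockout cells (adjusted p = 9.5e-06), with all 4 control arrays at 3523 to 3801.

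Of 39 ribosome biogenesis and RNA polymerase I genes, 13 fell and 3 rose in knockout cells (median -0.12), while in controls 18 rose (median 0.17) and none fell, also at an unadjusted p. The difference was negative at 20. Leaving out 1 array gave 5 to 9 falls in knockout cells, 8 to 17 rises in controls and 11 to 18 negative differences. Utp14a, part of the machinery that processes the small subunit RNA, fell from 1812 and 1887 to 1369 and 1279 (log2 change -0.48 ± 0.055). Lyar, a nucleolar protein, fell by 0.46 ± 0.050 and read 3758 and 3895 on day 3 and 2741 and 2819 on day 6. The 46 cytosolic ribosomal proteins counted 3 higher, 1 lower and a median of 0.03. With median centring the median was negative, with 1 higher and 8 lower.

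Aminoacyl-tRNA synthetases charge tRNAs with amino acids, and 11 of 35 rose and 2 fell in knockout cells, against 18 and none in controls (none at an unadjusted p either). Their median was 0.08 in knockout cells and 0.19 in controls, and the first became -0.02 under either other scaling. Median centring gave 4 higher and 8 lower in knockout cells. The rises in knockout cells numbered 3 to 6 with 1 array left out. Lars, the leucine enzyme, read 3029 and 3076 on day 3 and 2178 and 2141 on day 6, a fall of 0.50 ± 0.052, whereas it rose by 0.19 in controls (difference -0.69, adjusted p = 0.00065). Over all genes 13.0% fell and 20.5% rose in knockout cells. Of 20 tRNA wobble modification enzymes, 4 fell and 3 rose in knockout cells (2 or 3 falls and 2 rises with 1 array left out). Among them Adat2, which deaminates adenosine in tRNA, went from 619.4 and 603.8 to 384.8 and 358.8, and Nsun3, a mitochondrial tRNA methyltransferase, rose from 197.0 and 190.1 to 349.8 and 374.9. The probe sets of Nsun3 disagreed, and 1 of 3 others fell past the threshold.

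Of 33 translation initiation factors 4 fell and 2 rose in knockout cells, and 10 rose and 2 fell in controls (6 to 9 rises with 1 array left out). Median centring gave 17 lower and 1 higher in knockout cells. Eif1ax, which helps to choose the start codon, fell in both lines, by 0.68 in knockout cells (6479 and 6485 to 4007 and 4100.3) and by 0.23 in controls. Of 26 genes for mitochondrial protein import, 9 fell and 3 rose in knockout cells, and 1 fell and 8 rose in controls. With 1 array left out, the falls in knockout cells numbered 5 or 6 and the rises in controls 3 to 7. With median centring 16 fell and 1 rose in knockout cells, and 4 fell and 3 rose in controls, so the balance in controls turned. Timm8a1, a chaperone of the space between the membranes, fell from 5785 and 5856 to 4077 and 4015, and Tomm34, a cytosolic helper of import, from 2029 and 1908 to 1435 and 1428. Respiratory complex I (3 higher and 6 lower of 34) and complexes II to V (3 and 6 of 40) had medians of 0.02 and 0.01 beside -0.010 for all genes, and both turned negative with median centring. With 1 array left out, the falls in knockout cells numbered 3 to 6 in complex I and 3 to 5 in the others. Uqcr10 had the lowest value of the complexes II to V, whose changes ran from -1.32 to 0.30.

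Of 26 genes of vitamin B12 and one-carbon metabolism, 5 fell and 6 rose (3 or 4 falls with 1 array left out), with a median of -0.02. Median centring gave 11 lower and 4 higher. Ahcy, which clears S-adenosylhomocysteine, fell from 7724 and 7699.5 to 4847 and 4738 (log2 change -0.69 ± 0.050, adjusted p = 1.9e-05), and its control change was -0.11. Among 31 ubiquitin-conjugating enzymes 9 fell and 3 rose (4 to 7 falls with 1 array left out). Ube2d1 was already low on day 3, at 73.2 and 75.9 against 289.0 and 311.8 in controls, and went on to 42.7 and 35.5 (log2 change -0.94 ± 0.088). Among 17 genes of Ronin, the other THAP proteins and HCF-1 partners, 4 rose and 3 fell. With 1 array left out each number was 2 or 3, and with median centring 2 rose and 4 fell. The counts of these 3 lists are to be set beside 20.5% of all genes that rose and 13.0% that fell in knockout cells.

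**Figure D3:**
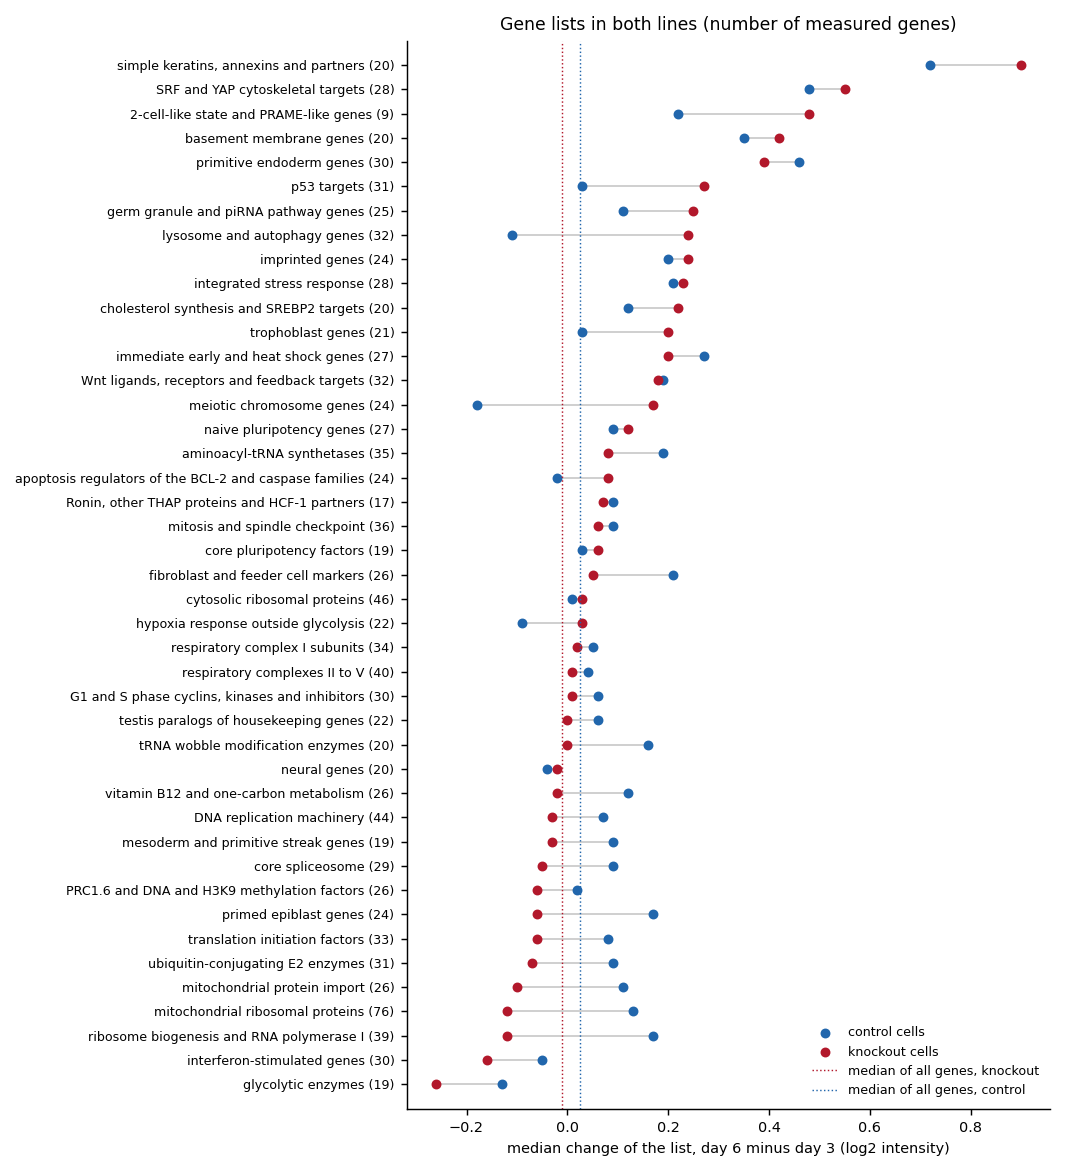
Median log2 change from day 6 minus day 3 of 43 gene lists, with the number of measured genes in brackets, in knockout cells (red) and control cells (blue). Dotted lines mark the medians of all genes, -0.010 and 0.025. Keratins, annexins and cytoskeletal targets rose in both lines, whereas lists of ribosome biogenesis, mitochondrial ribosomal proteins, lysosome and meiotic genes have medians of opposite sign. With each array centred on its median, the knockout medians of 11 lists and the control medians of 10 change sign, all of them at 0.08 or less from 0.

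Most of the largest rises were shared with controls, in genes of the cytoskeleton, of epithelial shape and of the basement membrane. Of 28 cytoskeletal genes that the factors SRF and YAP activate, 21 rose and 1 fell in knockout cells, and the same numbers did so in controls. The medians were 0.55 and 0.48, and of the 9 fibroblast markers none rose in knockout cells and 3 did in controls. A wider list of 26 fibroblast and feeder cell genes, which shares Acta2 and Tagln with this one, counted 5 higher and 1 lower in knockout cells and 9 higher and 1 lower in controls, with 4 higher and 4 lower in knockout cells after median centring. Their part in these rises was not tested. Acta2, smooth muscle actin, read 229.0 and 274.4 in knockout cells on day 3 and 1534 and 1669 on day 6, a log2 change of 2.67 ± 0.11 (adjusted p = 1e-06). Its probe set shares probes, and its 2 other probe sets moved by -0.07 and 0.11. Ccn1, a matrix protein and YAP target, went from 409.0 and 392.0 to 1878 and 1852 (2.22 in knockout cells and 2.09 in controls). With the mean of its probe sets the difference between the lines passed (0.68, adjusted p = 0.023 in limma). Tagln, an actin-binding protein, went from 399.0 and 409.5 to 1632 and 1570, a rise of 1.99, and rose more in controls (2.74), so that the difference was -0.76 ± 0.090.

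Simple keratins, annexins and their partners belong to epithelial cell shape and membranes, and 17 of 20 rose in knockout cells and none fell, also at an unadjusted p. In controls 15 rose and 1 fell. Krt8 and Krt18, a keratin pair, rose by 1.74 and 1.72 in knockout cells and by 2.68 and 2.52 in controls. Krt8 read 1121 and 1171 in knockout cells on day 3 and 3789 and 3867 on day 6, and 659.8 and 595.3 in controls and then 3962 and 4078. The lines lay further apart on day 3 than on day 6. The same held for Anxa1, a membrane-binding protein that damps inflammation, at 280.0 and 243.7 against 77.7 and 68.1 on day 3 and at 826.2 and 819.0 against 674.0 and 721.9 on day 6 (difference of changes -1.61 ± 0.13). Anxa3 rose by 2.30 in knockout cells and by 3.18 in controls.

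Of 20 basement membrane genes, 15 rose and none fell in knockout cells (1 fell at an unadjusted p), beside 12 and 1 in controls. Col4a1 and Col4a2, the chains of type IV collagen, rose by 2.23 and 2.41. Col4a1 read 437.0 and 451.2 on day 3 and 2079 and 2079 on day 6, and Col4a2 121.0 and 122.5 and then 639.8 and 653.9. Their control rises of 2.09 and 2.16 did not differ past the threshold (difference 0.13 ± 0.12 and 0.25 ± 0.12). Efemp1, a matrix glycoprotein, rose from 20.6 and 23.7 to 52.0 and 43.3, less than in controls (1.10 and 2.05).

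**Figure D4:**
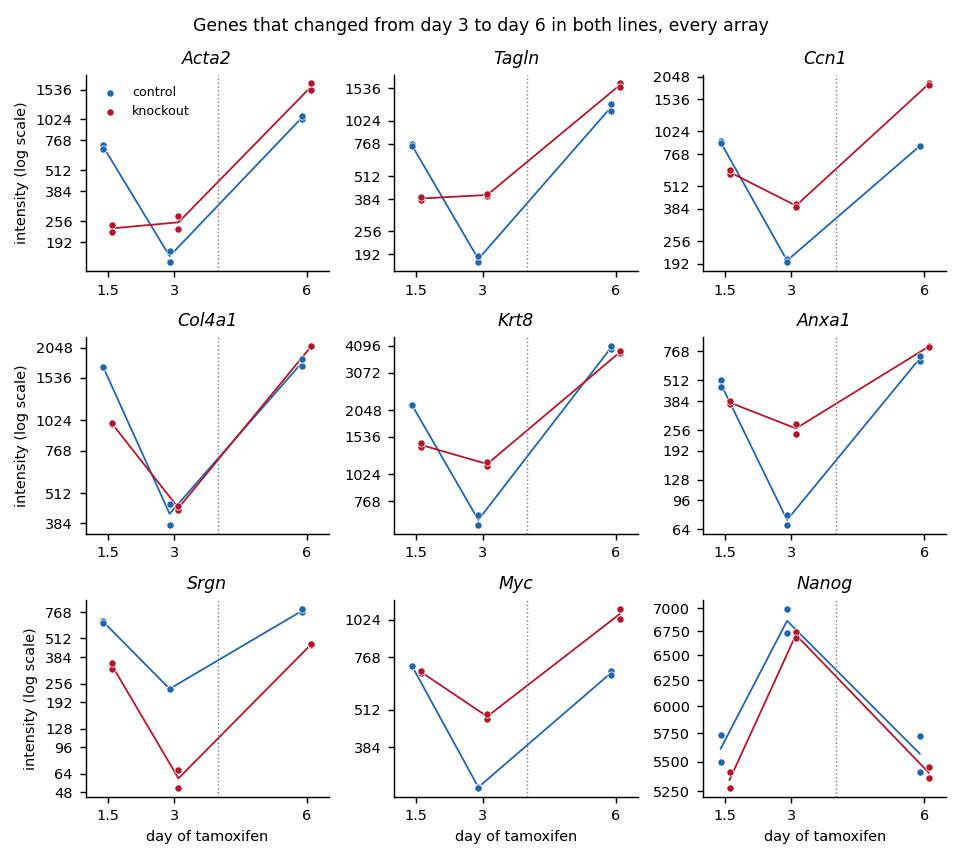
Intensity on a log axis against the day of tamoxifen for 9 genes that changed in both lines, with every array as a point, lines through the group means and a dotted line at the split on day 4. In controls every gene shown but Nanog was lowest on day 3, and Nanog was highest then. In knockout cells Tagln and Acta2 were about as low on day 1.5 as on day 3.

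Other leading rises had single roles. Clone symbols aside, Srgn, a proteoglycan of secretory granules, rose most, from 67.5 and 51.7 to 465.7 and 471.4 (log2 change 2.99 ± 0.11). Its controls read 235.8 and 236.5 and then 765.8 and 804.9. Both knockout days stayed below the controls of the same day. Knockout day 1.5 had a mean of 337.4, and day 6 lay 0.48 above it on the log2 scale. Glipr1 (2.84 ± 0.18), Ets1, a transcription factor (2.27), and Nefm, a neurofilament subunit (2.39), rose in both lines, with control changes of 2.36, 1.98 and 2.05. Ptgs2, the inducible cyclooxygenase, rose by 2.25 in knockout cells and by 1.24 in controls.

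Of 30 primitive endoderm genes, which mark the early yolk sac lineage, 17 rose in knockout cells and none fell (2 at an unadjusted p), and in controls 16 rose and 1 fell. The summed intensity of 7 defining markers went from 371.3 to 375.3 on day 3 to 650.2 to 673.4 on day 6 in knockout cells, and from 357.6 to 394.9 to 764.9 to 772 in controls, with 5 and 7 of them higher. In bulk RNA a larger share of such cells and more RNA per cell cannot be told apart. Cubn, an endocytic receptor of that lineage, rose by 1.67 to 101.7 and 88.3, but day 6 was no higher than knockout day 1.5 (log2 difference -0.15, adjusted p = 0.26). Fst, an activin antagonist, rose from 98.3 and 104.5 to 322.6 and 348.7 and lay 2.13 above day 1.5.

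Of 27 immediate early and heat shock genes 12 rose and 2 fell in knockout cells, and 15 rose and none fell in controls (1 at an unadjusted p). Rises numbered 8 or 9 in knockout cells and 9 to 13 in controls with 1 array left out. Fos read 217.9 and 212.0 and then 466.8 and 460.8, a rise of 1.11 beside 1.92 in controls. Atf3 rose by 1.32 and Myc by 1.14 (476.5 and 497.6 to 1032 and 1112), and neither differed past the threshold from controls. Of 24 imprinted genes 12 rose and 1 fell, beside 9 and 1 in controls. Plagl1, a zinc finger gene of growth control, rose by 1.72 from 1058 and 1082 to 3575 and 3472, more than in controls (1.10), on a probe set with shared probes. Igf2, a growth factor, rose by 1.28 and Peg10, a retrotransposon-derived placental gene, by 1.34. Peg10 on day 6 did not pass the threshold against knockout day 1.5 (0.23, adjusted p = 0.13).

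The germline genes with the largest rises in knockout cells rose less, or fell, in controls. Of 24 meiotic chromosome genes, 11 rose and 5 fell in knockout cells, and 3 rose and 7 fell in controls. The falls in knockout cells numbered 1 to 3 with 1 array left out. The difference was positive at 11 and negative at none, also at an unadjusted p. Sycp1, Sycp2 and Sycp3 build the synaptonemal complex that joins paired chromosomes, and Stag3 is a cohesin subunit of meiosis. Sycp3 read 569.7 and 602.1 in knockout cells on day 3 and 1653 and 1674 on day 6, while the controls went from 1097 and 1091 to 485.5 and 513.6. The lines crossed, with knockout below control on day 3 and above on day 6, and the difference was 2.64 ± 0.092 (adjusted p = 6.3e-06). Sycp2 rose from 29.6 and 28.3 to 131.2 and 126.6, a change of 2.15 ± 0.17. Its control arrays all read 18.6 to 29.7, which is dim for this set of arrays. Stag3 went from 387.3 and 401.5 to 1317 and 1255 (1.71 ± 0.11). Sycp1 went from 386.4 and 395.3 to 1422 and 1427, and rose in controls too (1.87 and 1.06, difference 0.81, adjusted p = 0.012).

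Germ granule and piRNA genes guard germ cells against transposons, and 10 of 25 rose and none fell in knockout cells (2 at an unadjusted p). In controls 9 rose and 1 fell, and the difference was positive at 7 and negative at 2. Dazl, an RNA-binding protein of germ cells, went from 261.2 and 263.1 to 1028 and 984.2 in knockout cells and from 153.5 and 168.3 to 193.2 and 223.1 in controls. Its changes were 1.94 ± 0.075 and 0.37, a difference of 1.57 (adjusted p = 8.3e-05). Mov10l1, a helicase of piRNA formation, went from 98.9 and 93.1 to 352.6 and 384.7, and all control arrays of these days read 68.9 to 83.5. Mael rose by 1.59 to 919.4 and 900.5.

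The list of testis paralogs, germline copies of widely used genes, counted 8 of 22 higher and 2 lower, with a median of -0.00. The difference between the lines was positive at 5 and negative at 3. Slc25a31, the testis form of the mitochondrial ADP/ATP carrier, rose from 123.0 and 121.0 to 584.2 and 577.3, a change of 2.25 ± 0.088, with controls at 43.7 to 61.7. Taf7l, a testis form of a TFIID subunit, rose by 2.21 from 76.9 and 92.8 to 410.9 and 372.6. Nxf2, of the mRNA export family, rose by 1.01 but stayed dim (30.3 and 36.5), and Nxf3 of the same family fell from 64.4 and 70.3 to 35.7 and 34.3 while it rose by 0.82 in controls.

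Of 9 genes of the 2-cell-like state and the PRAME-like family, 4 rose in knockout cells and 4 in controls, with none lower in either. The difference between the lines was positive at 2 and negative at 2. Usp17la, a deubiquitinase gene, went from 42.2 and 46.4 to 234.9 and 230.9 (2.39 ± 0.13), against 0.67 in controls. Tcstv1 rose by 1.94 to 43.7 and 49.6, with the control arrays of these days at 11.9 to 13.1, which is dim for this set of arrays. Arg2 rose by 1.13, also at low values. Pramel6 rose by 1.36 in controls, while in knockout cells it read 417.1 and 378.6 and then 404.7 and 424.9, which overlap. Its knockout day 6 level lay 1.02 above knockout day 1.5 (adjusted p = 6.3e-05).

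**Figure D5:**
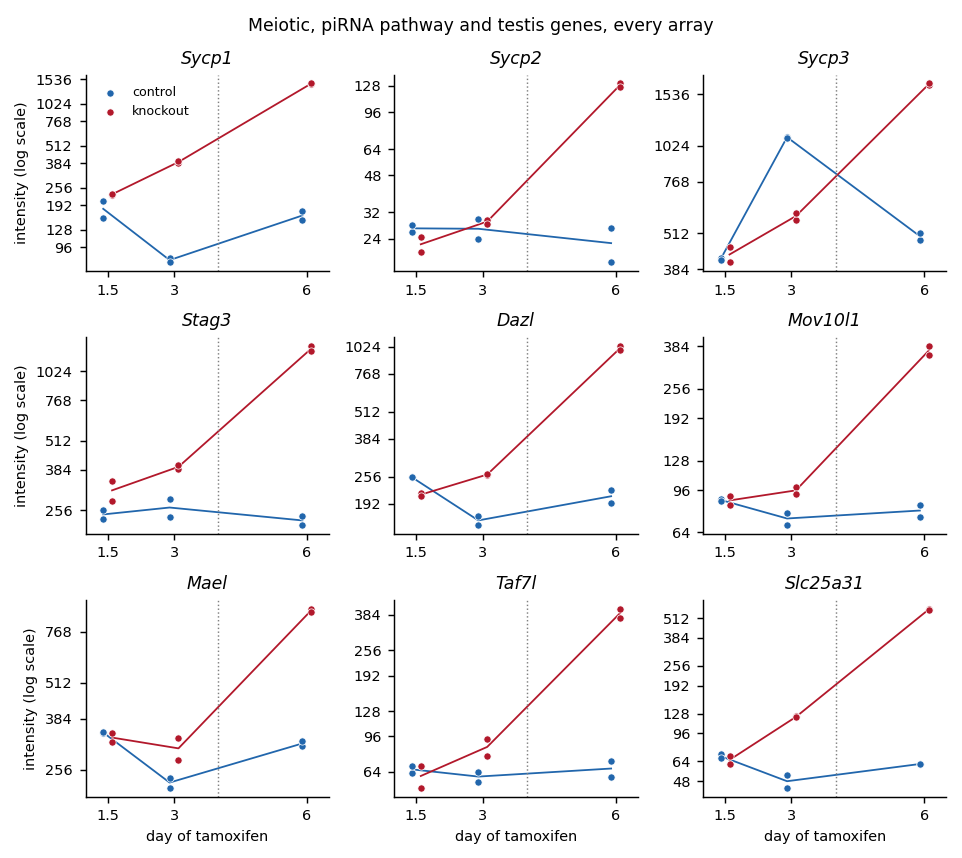
Intensity on a log axis against the day of tamoxifen for 9 meiotic, piRNA pathway and testis genes, with every array as a point, lines through the group means and a dotted line at the split on day 4. The knockout arrays of day 6 lay above every other array of the study for all 9 genes, and the control arrays of Sycp3 peaked on day 3.

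Lysosome and autophagy genes also went opposite ways. Of 32, 20 rose and 2 fell in knockout cells (median 0.24), and 1 rose and 14 fell in controls (median -0.11). The difference was positive at 18 and negative at none (1 at an unadjusted p). Leaving out replicate 1 of control day 6 lowered the falls in controls to 7. Hexa, a subunit of the enzyme that breaks down gangliosides, read 2338 and 2352 in knockout cells on day 3 and 4078 and 4084 on day 6, and 3581 and 3640.3 in controls and then 2267 and 2423. Its changes were 0.80 and -0.62, and their difference was 1.42 ± 0.072 (adjusted p = 2.9e-05). Scarb2, a membrane protein of lysosomes, rose from 1056 and 1116 to 1766 and 1718 (0.68 ± 0.049). Npc2, which carries cholesterol out of lysosomes, changed by 0.09 ± 0.047 (adjusted p = 0.17) and fell by 0.39 in controls, and the first became -0.01 with median centring. It passed, at an adjusted p of 0.036, with limma's intensity trend and robust prior.

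Of 31 p53 targets, 18 rose and 1 fell in knockout cells (median 0.27), and 6 rose and 6 fell in controls (2 to 6 falls with 1 array left out, and 4 higher and 10 lower with median centring). The difference was positive at 12 and negative at 1. Plk2, a stress-induced kinase, went from 530.1 and 552.0 to 1164 and 1129.9 (1.08 ± 0.052), beside 0.38 in controls, although its other probe set moved by -0.25 and did not pass. Ddit4l, an inhibitor of mTOR signalling, went from 222.5 and 204.0 to 391.6 and 386.3 (0.87 ± 0.087), with controls at 167.2 to 202.0. Cdkn1a, the cell cycle inhibitor p21 and the target most used as a p53 readout, read 1104 and 1102 and then 1201 and 1229. Its change of 0.14 ± 0.081 did not pass (adjusted p = 0.22), and its other probe set fell by 0.74 past the threshold. Its difference from the control change did not pass in the settings used throughout. That difference passed with limma's intensity trend and robust prior (0.38, adjusted p = 0.0021), median centring (0.36, 0.049) and quantile normalization (0.38, 0.036). Against knockout day 1.5 the day 6 level of Cdkn1a was higher by 0.41 (adjusted p = 0.0044).

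Of 28 genes of the integrated stress response 15 rose and 2 fell in knockout cells, and 13 rose and 1 fell in controls. The difference between the lines was positive at 6 and negative at 3, with a median of -0.01 over the list. Ddit3, the factor CHOP, differed between the lines, going from 232.7 and 259.1 to 666.3 and 587.3 in knockout cells (1.35 ± 0.10) and from 374.8 and 319.1 to 343.0 and 341.3 in controls. Its other probe set moved by 0.18 and did not pass. Atf5 rose by 1.13 in knockout cells and by 0.40 in controls. Of 24 regulators of apoptosis, 5 rose and 3 fell (3 rises with any 1 array left out), and 4 rose and 6 fell with median centring. The 5 and 3 are near the shares over all genes, 20.5% and 13.0%.

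Of 19 glycolytic enzymes 12 fell and 4 rose in knockout cells (median -0.26), and 8 fell and 2 rose in controls (median -0.13). The falls in controls numbered 3 without replicate 1 of control day 6 and 5 without replicate 1 of control day 3. Ldha, lactate dehydrogenase, fell from 8840 and 8927 to 5991 and 6090.3 in knockout cells (-0.56 ± 0.045) and changed by 0.02 in controls. Pfkfb3, which makes an activator of glycolysis, rose from 53.9 and 59.1 to 142.3 and 132.6. Of 22 other hypoxia genes 8 rose and 3 fell (7 and 8 with median centring), and Plod2, a collagen hydroxylase, rose by 0.86. Of 20 genes of cholesterol synthesis 10 rose and 1 fell, beside 7 and 1 in controls (3 to 7 rises with 1 array left out). Msmo1, a demethylating enzyme of the pathway, rose by 0.95 from 863.5 and 866.7 to 1683 and 1650.3, and Ebp, a sterol isomerase, was the gene that fell, from 1518 and 1518 to 794.8 and 780.4.

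Among the main factors of the stem cell state, Nanog fell, while Pou5f1 and Sox2 did not pass the threshold (Pou5f1 passed it, at an adjusted p of 0.015, with limma's intensity trend and robust prior). Of 19 core pluripotency factors 3 rose and 1 fell (2 and 3 with median centring), beside 20.5% and 13.0% of all genes. Pou5f1, the gene of Oct4, read 11866 and 11798 on day 3 and 12562 and 12601 on day 6, a change of 0.09 ± 0.047 (adjusted p = 0.18), which became -0.01 with median centring. Sox2 read 7848 and 8232 and then 8309.7 and 8323 (0.05 ± 0.083, adjusted p = 0.68). Nanog fell from 6749 and 6679 to 5359 and 5452, by 0.31 ± 0.052, and it fell by 0.30 in controls. Its day 6 level matched that of knockout day 1.5 to 0.02 on the log2 scale (adjusted p = 0.86).

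Of 27 naive pluripotency genes 11 rose and 5 fell in knockout cells, beside 10 and 5 in controls, and with 1 array left out the rises were 6 or 7 and 5 to 8. With median centring 6 rose and 7 fell in knockout cells, and with quantile normalization 6 and 5, so the excess of rises was not kept. Gdf3, a Nodal-related ligand, rose by 0.51 and Nr0b1, a nuclear receptor, by 0.60, each about as in controls (0.47 and 0.44). The difference for Nr0b1 passed with limma's intensity trend and robust prior (0.17, adjusted p = 0.026). Gbx2, a homeobox gene, rose by 0.61, less than in controls (1.31), and Dppa3, a maternal factor that protects methylation, fell by 0.50 and by 0.52. Of 24 primed epiblast genes, which mark the next stage of development, 4 rose and 6 fell in knockout cells and 11 rose and 2 fell in controls. The difference was negative at 10, Lefty1 and Lefty2 among them, and positive at none, also at an unadjusted p.

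Of 21 trophoblast genes 8 rose and 2 fell, beside 5 and 1 in controls (5 to 7 and 2 to 4 rises with 1 array left out). With median centring the controls had 5 of each. Gata3, a trophoblast factor, read 29.3 and 35.3 and then 80.5 and 127.2 (1.66 ± 0.25), and Krt7, a keratin of that lineage, went from 125.6 and 125.1 to 307.2 and 289.7 (1.25 ± 0.077). The summed intensity of 4 trophoblast markers was 283.8 to 296 in knockout cells on day 3 and 493 to 516.7 on day 6, and 278.9 to 295.9 and then 396.2 to 418.3 in controls. Elf5, a defining factor of trophoblast stem cells, stayed at 16.79 or less on every array. Neural genes counted 4 higher and 2 lower of 20, and mesoderm genes 4 higher of 19 with none lower (1 at an unadjusted p). Over all genes 20.5% rose and 13.0% fell in knockout cells, so the 4 rises in each list are near that share.

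Among 44 genes of the DNA replication machinery 11 fell and 4 rose in knockout cells, and 2 fell and 10 rose in controls. With 1 array left out the falls in knockout cells were 5 to 7 and the rises in controls 4 to 8, and the 9 negative differences between the lines were 1 to 6. With median centring 4 rose and 4 fell in controls. Among 36 genes of mitosis and the spindle checkpoint, 10 rose and 4 fell, beside 13 and 1 in controls (6 to 9 and 8 to 12 rises with 1 array left out). With median centring 6 rose and 8 fell in knockout cells, which turned the balance, and 8 rose and 4 fell in controls. Bub1b, a checkpoint kinase, was one that fell, from 1239.7 and 1264 to 857.3 and 822.6 in knockout cells (-0.58 ± 0.056), with controls at 2027 to 2193. Of 30 G1 and S phase genes 10 rose and 8 fell (4 to 6 falls with 1 array left out), and 7 rose and 11 fell with median centring. Cdc25a, a phosphatase that drives the cycle, fell by 0.84 and in controls by 0.51. Ccnd2, cyclin D2, rose from 259.5 and 247.5 to 431.1 and 407.2, less than in controls (0.73 and 1.61). Tk1, thymidine kinase, fell from 1063 and 1041 to 774.1 and 788.0 and rose by 0.20 in controls.

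Of 26 genes of the PRC1.6 complex and of DNA and H3K9 methylation, which hold germline genes silent in other cells, 10 fell and 7 rose in knockout cells, beside 1 and 7 in controls. The falls in knockout cells numbered 6 or 7 and the rises 4 to 6 with 1 array left out. Dnmt3l, a cofactor of new DNA methylation, rose from 5061 and 4856 to 7357 and 7369 (0.57 ± 0.049) and rose by 0.68 in controls. E2f6, a DNA-binding subunit of PRC1.6, rose by 0.42. Of 30 interferon-stimulated genes 8 fell and 2 rose, beside 2 and 6 in controls (5 to 7 falls and, in controls, 3 or 4 rises with 1 array left out). Median centring turned the balance in controls, to 7 lower and 3 higher. Irf1, a transcription factor of the response, fell by 0.66, and B2m, the light chain of class I molecules, rose by 0.73 from 538.4 and 587.1 to 926.7 and 940.8. Of 32 Wnt pathway genes 12 rose and 2 fell, beside 11 and 3 in controls (10 to 12 and 6 to 9 rises with 1 array left out).

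Some of the largest differences between the lines came from single genes. Emilin2, an extracellular matrix protein, rose from 45.0 and 36.0 to 185.7 and 154.1 in knockout cells, with controls at 32.1 to 36.8. St6galnac3, a sialyltransferase, rose from 42.4 and 46.2 to 198.2 and 185.9, with controls at 35.0 to 41.1, although its 2 other probe sets moved by -0.06 and 0.13. Pdlim4, an actin-associated protein, rose by 0.39 in knockout cells and fell by 1.73 in controls, from 467.9 and 464.7 to 138.7 and 143.1. Gbp2, an interferon-induced GTPase, read 38.0 and 52.0 and then 43.7 and 53.7 in knockout cells, which overlap, and rose in controls from 41.0 and 32.5 to 144.7 and 163.3, on a probe set with shared probes. Its knockout day 6 level lay 0.61 above knockout day 1.5 (adjusted p = 0.018).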

How the data were processed

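RNA of 12 arrays (Affymetrix Mouse Genome 430 2.0, 6 groups of 2) was analysed. Each deposited value is the intensity of a probe set, which the authors computed by RMA, per the submitters' processing notes, and the version of RMA is not given in the sources used here. RMA corrects background, puts arrays on a common distribution and summarises probes. The values ran from 5.511 to 34993 and are linear, so log2 was taken before any test. Precision is limited by the number of arrays, and detection calls and scan dates were not used here.

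The platform annotation gave 1 symbol to 34958 of 45101 probe sets, several to 932 and none to 9211, and 34754 matched RefSeq (GRCm38.p6) by gene ID. For each of 18194 genes the probe set with the highest mean was tested, with no filter. Suffixes that mark probes shared with other transcripts are named in the text for large changes, and Ccn1, Cubn, Bub1b, Dnmt3l and Pramel6 have them too.

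Group means over all 12 arrays were fitted with limma 3.58.1 in R 4.3.3 with eBayes (residual degrees of freedom 6, prior 3.04). Benjamini-Hochberg adjustment ran over all genes, with calls at 0.05. Log2 changes are given ± SE. Knockout day 6 against day 3, the same in controls, and the difference of both were tested. The script was tested on simulated data.

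Members and the 43 gene lists were chosen with earlier results of these data known, so lists carry counts and medians and no test. Named genes follow a rule: the 12 largest rises and falls, the 6 largest differences between lines each way, up to 3 changed and 1 bright member of each list, and 7 fixed genes. The rule takes 186 genes, and the text describes 97 of them, picked after their values were seen, partly for calls that held with 1 array left out. Promoter sequences are RefSeq's. Alternatives were a replicate block, only the arrays compared, another eBayes setting, dropping the dimmest 40% of genes, averaging a gene's probe sets, median centring, quantile normalization, an offset of 32 and leaving out each array. Knockout day 1.5 in place of day 3 was added after seeing the data. Figures were made in matplotlib 3.10.9.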

Additional observations from a re-analysis of the deposited data

Results flagged for a closer look

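Each gene here changed from day 3 to day 6 by an amount that differed between knockout and control cells, by limma's interaction at an adjusted p below 0.05. Values are the knockout minus the control change on the log2 scale. No explanation was weighed. Groups of 2 arrays allow no test for a single array that stands apart.

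The knockout change was more negative than that of controls for genes that fell in knockout cells. The difference was -2.15 for Iftap, -1.96 for Mmachc, -1.81 for Gtf2h4, -1.77 for Nxf3, -1.51 for Acad8 and for Lefty2, -1.47 for Mrpl34, -1.36 for Uqcr10 and -1.34 for Ctu1. It was -1.19 for Ube2d1, -1.18 for Ifi35, -1.12 for Ebp, -1.05 for Mrpl24 and for Thap11, -0.79 for Adat2 and for Lefty1, and -0.69 for Defb42 and for Lars. Smaller ones were -0.63 for Tk1, -0.61 for Bub1b, -0.60 for Timm8a1, -0.58 for Ldha and for Ahcy, -0.55 for Irf1 and -0.53 for Lyar. They ended with -0.45 for Eif1ax, -0.42 for Utp14a and -0.37 for Tomm34.

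For genes that rose in controls by more than in knockout cells, the difference was -1.95 for Gbp2, -1.61 for Anxa1, -1.29 for Pramel6, -0.95 for Efemp1, -0.94 for Krt8 and -0.89 for Anxa3. It was -0.88 for Ccnd2, -0.81 for Fos, -0.80 for Krt18, -0.76 for Tagln and -0.71 for Gbx2.

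Germline and 2-cell-like genes went both ways, apart from the meiotic list with 11 positive and 0 negative differences. Over all genes 7.69% of differences were positive and 8.75% negative past the threshold. Positive and negative ones numbered 7 and 2 of 25 germ granule and piRNA genes and 5 and 3 of 22 testis paralogs. They numbered 2 and 2 of 9 2-cell-like and PRAME-like genes, and Nxf3 and Pramel6 above are among the negative ones. The knockout change was more positive by 2.64 for Sycp3, 2.40 for Sycp2, 2.08 for Taf7l, 1.94 for Tcstv1, 1.89 for Stag3, 1.88 for Slc25a31 and 1.83 for Mov10l1. It was 1.72 for Usp17la, 1.57 for Dazl, 1.20 for Nxf2, 1.14 for Mael and 0.81 for Sycp1. Other genes with a positive difference were Pdlim4 (2.12), St6galnac3 (2.11), Emilin2 (2.00), Hexa (1.42), Ddit3 (1.36), Srgn (1.25), Ddit4l (1.06) and Ptgs2 (1.01). Below 1 the values were 0.83 for B2m, 0.74 for Nsun3, 0.73 for Pfkfb3, 0.72 for Atf5, 0.71 for Plk2, 0.66 for Cubn and 0.62 for Plagl1. The smallest were 0.56 for Krt7, 0.53 for Plod2 and for Scarb2, 0.49 for Msmo1 and 0.48 for Npc2.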

How the results depend on the processing

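With a replicate block and only the arrays compared, 3808 genes passed in knockout cells, 2884 in controls and 1745 for the difference between lines. With only the arrays compared and no block, controls had 2760. A replicate block over all 12 arrays gave 6024, 4868 and 2810. The numbers do not pair the arrays, since same-numbered arrays of knockout days 3 and 6 correlated at -0.021 in their deviations and all pairs of groups at -0.057 to 0.173. With 1 array left out the counts were 4136 to 4696, 3072 to 4177 and 1883 to 2618. The other settings kept these 3 counts within 1.5 times, and the causes were not tested. With knockout day 1.5 in place of day 3, a setting chosen after seeing the data, Cubn was at -0.15 and Nanog at 0.02, both turned in sign and not past the threshold, and 5 named genes lost their call (Malat1, Peg10, Gbx2, Irf1 and Nxf3). In that setting 4 genes gained a call, all higher on day 6. They were Pramel6 (1.02, adjusted p = 6.3e-05), Gbp2 (0.61, 0.018), Cdkn1a (0.41, 0.0044) and Npc2 (0.36, 0.00047). Of the 139 genes of the naming rule called in knockout cells 132 stayed called whichever array was left out, and of 93 called for the difference 78 did. Verdicts on single genes under the other settings cover only the 97 genes of the text, 71 of them called for the difference. The remaining genes of the rule were not checked in this way. Among the 71 the mean of all probe sets ended 5 differences between lines, those of Nsun3, Cubn, Plk2, Plod2 and Msmo1, and the offset of 32 that of Cubn. The replicate block with only the arrays compared ended that of Efemp1 (adjusted p = 0.051). Among the other genes of the text, differences gained numbered 8 with the offset, 5 with the intensity trend and robust prior, and 4 without the dimmest 40%. Cdkn1a, Nr0b1 and Cdc25a passed in each of these, and Nefm, Ccn1, Fst, Arg2 and Gata3 with the offset. Median centring gained 2, quantile normalization 1 and the mean of all probe sets 1. Median centring turned the sign of 4 small changes (Npc2, Pou5f1, Pramel6 and Sox2), none of them called. Without detection calls, dim genes such as Tcstv1, Nxf2 and Arg2 have no known background level. Neither do the day 3 knockout values of Sycp2, Gata3, Efemp1, Emilin2 and St6galnac3, nor the control values of Sycp2, Emilin2 and St6galnac3. The size of these rises and differences is less sure. No background level is known either for the day 6 knockout values of Thap11, Iftap, Mmachc, Acad8, Ctu1 and Ube2d1. They lie near the medians of these 2 arrays over all probe sets, 42.75 and 43.04, so the size of these falls is less sure.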
